A study of Mus musculus with 24 samples.

Results

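Transcript levels at 24 h were compared with those at 4 h in TM3 cells that had received a nanosecond pulsed electric field (nsPEF). TM3 is an established line of mouse Leydig cells, the androgen-producing cells of the testis. The comparison takes the 4 nsPEF arrays of 24 h (E24) and the 4 nsPEF arrays of 4 h (E4), 8 of the 24 single-colour Agilent arrays of the series, chosen by sample title. The 4 sham arrays of each of the same time points (S24 and S4) show how much of the change also took place without the field, and 8 arrays of 0 h complete the series. Cells were taken off their dishes, resuspended in a binding buffer and placed in cuvettes, and both nsPEF and sham cells went through this handling. The field consisted of 80 pulses of 60 ns with an amplitude of 5.5 kV and a field strength of 14 kV/cm, given at 26.4 pulses per minute over 180 s. Sham cells received no pulses. A group is a set of cultures of a single cell line, and the p values measure the spread between these 4 samples per group.

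High-voltage pulses of nanosecond length charge and permeabilise cell membranes and let calcium into the cytoplasm, after which cells reseal their membranes. Adherent cells that are detached and handled respond with immediate-early transcription factors, growth factor ligands and cytoskeletal genes, whose transcripts are short lived and are restrained by feedback phosphatases. As cells return to growth, transcripts for DNA replication and mitosis rise, whereas the making of ribosomes and sterols follows nutrient and growth factor supply. These are background and were not tested here.

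On the value scale used below, the log2 signal of a probe relative to the 75th percentile of its array, 0 stands for that percentile. Of 56605 probes, 29481 were well above background on all 4 arrays of at least 1 of the groups E24 and E4 and were tested. Of these, 20530 carried a gene symbol and stood for 14040 genes, and 26005 were well above background on all 16 arrays of 4 h and 24 h. A probe was called at an adjusted p under 0.05 in limma's moderated test with Benjamini-Hochberg adjustment over all tested probes. The 75th percentile of the intensity lay between 362.5 and 434.2 on the E4 arrays and between 362.8 and 494.4 on the E24 arrays. The share of probes well above background was 54.4% ± 2.15 (SD, n = 4) in E4 and 55.9% ± 2.10 (SD, n = 4) in E24 (exact permutation test, two-sided, p = 0.343), and it was higher in sham, at 59.6% and 60.0%. The median signal of the negative controls was higher in nsPEF than in sham, at 3.66 against 2.49 at 4 h and at 3.72 against 2.43 at 24 h. Spots marked for unevenness or for disagreement with replicate spots averaged 328 against 124.8 at 4 h and 417 against 161 at 24 h. For each of these comparisons the exact permutation test, two-sided, gave p = 0.0286. Each slide carried the 8 arrays of 1 time point. An effect of the slide and an effect of time cannot be told apart, and the sham and nsPEF samples took separate rows of arrays on each slide. Differences between the nsPEF and sham changes are free of an effect that a slide has on all of its arrays alike. An effect of the row of arrays cannot be told apart from one of nsPEF. If such an effect varied between slides, it would stay in these differences.

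The Leydig cell label was checked against 15 marker genes on the array. Probes for 9 of them were well above background on all 16 arrays, among them Nr5a1, a master regulator of steroidogenic cells, Star, which carries cholesterol into mitochondria, and Cyp17a1, which makes androgen precursors. Probes for Cyp11a1, the first enzyme of steroid synthesis, Lhcgr, the luteinizing hormone receptor, Hsd3b6 and Hsd17b3 were well above background on none. Of the markers of other testis cells, 4 of 10 for Sertoli cells, 4 of 10 for germ cells, 4 of 8 for macrophages, 1 of 7 for endothelial cells and 5 of 7 each for peritubular myoid cells and for fibroblasts were well above background on all 16 arrays. For macrophages the common leukocyte antigen Ptprc and the defining marker Adgre1 were not. In nsPEF cells 3 of the 10 tested Leydig markers were called higher at 24 h than at 4 h and 4 were called lower, against 35.8% and 35.4% of all tested genes. Fdxr, an electron donor of steroidogenic enzymes, rose by 1.91 on the log2 scale, Inha, the inhibin alpha subunit, rose by 1.64, and Star fell by 1.22. Sham cells moved by 1.96, 1.59 and -1.51 for the same 3 genes, and limma's test of the difference between the nsPEF and sham changes called 0 of the 10 (0 also had an unadjusted p under 0.05).

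Most of the measured transcriptome of nsPEF cells differed between 4 h and 24 h, and most of that difference was also seen in sham cells. At 24 h 9403 probes (31.9%) were called higher than at 4 h and 9900 (33.6%) lower, and 4376 of the 19303 called probes differed by at least 2-fold. In sham cells 9475 probes (32.1%) were called higher and 9908 (33.6%) lower. A scaling on the spike-in RNA instead of the 75th percentile moved the median of all tested probes from -0.02 to 0.37, and 79.8% of the calls in nsPEF cells were then higher, against 48.7%. Levels below are therefore relative to the bulk of transcripts on the same array. In Euclidean distance over 28288 probes the E24 arrays lay 135.1 ± 1.58 (SD over pairs) from the E4 arrays, more than the 62.7 ± 4.97 between E4 arrays and the 61.8 ± 4.20 between E24 arrays.

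**Figure D1:**
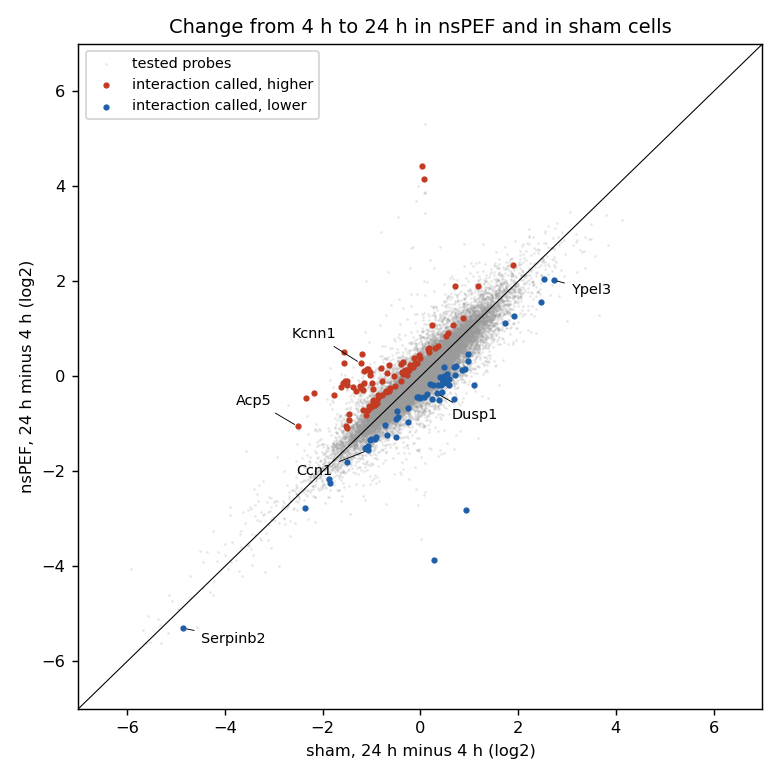
Change from 4 h to 24 h (log2) of each tested probe in nsPEF cells (vertical axis) against the change in sham cells (horizontal axis), with the 87 probes whose change was called higher in nsPEF and the 62 called lower in colour and the remaining probes in grey. Most probes lie along the line of equal change, and the coloured probes lie off it on either side.

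The largest falls in nsPEF cells between 4 h and 24 h, taken over genes measured above background at both time points, included those of Nppb, Ngef, Serpinb2 and Ptpn22. Nppb, which encodes B-type natriuretic peptide, stood at 1.92, 1.86, 1.67 and 1.69 on the E4 arrays and at -3.86, -3.52, -4.00 and -3.92 on the E24 arrays. It fell by 5.61 on the log2 scale, which is 49.0-fold (SE 0.11, adjusted p = 4.27e-19), and its E24 level was close to its 0 h values of -4.12 to -3.95. Serpinb2, an inhibitor of plasminogen activators, stood between 6.20 and 6.24 on the E4 arrays and between 0.87 and 0.98 on the E24 arrays, a 39.5-fold fall (adjusted p = 2.13e-23). The groups did not overlap for either gene, and the spread within a group was far below the distance between them. Il1rl1, the interleukin 33 receptor, fell from values of 4.61 to 4.72 to values of 0.02 to 0.11. Further large falls were those of Plet1 (-4.90), Ptpn22, a phosphatase of immune signalling (-5.28), Kcnn4, a calcium-activated potassium channel (-3.48), Inhba, the activin A subunit (-3.41), Trim16 (-3.59), Pmepa1, a brake on TGF-beta signalling (-3.75), and Noct (-3.12). Ngef fell by 5.60 (SE 0.71), with 1 E4 array left out because its spot was marked.

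The largest rises were smaller. Cstad stood at -2.98, -3.03, -2.45 and -2.44 in E4 and at 0.38, 0.19, 0.61 and -0.08 in E24, a rise of 3.00 on the log2 scale or 8.01-fold (SE 0.13, adjusted p = 3.53e-14). Ccng2, a cyclin of non-dividing cells, rose by 2.41 from between -0.37 and -0.14 to between 1.91 and 2.35. Bmf, a pro-apoptotic Bcl2 family member, rose by 2.38 from between -1.86 and -1.46 to between 0.40 and 0.93. Among the others were Tifa, an adaptor of NF-kB signalling (2.83), Mrnip, a DNA repair factor (2.80), Neurl1b (2.69), Zfp467 (2.59), Nfatc4, a calcium-regulated transcription factor (2.52), and Pknox2 (2.35). All 24 of the genes chosen for the largest rises and falls were called under each alternative and without each array, and each of them moved in the same direction in sham cells. Pknox2 and Serpinb2 were also called in the difference between the nsPEF and sham changes, at 0.45 (adjusted p = 0.0354) and -0.45 (adjusted p = 0.0237).

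Some genes were measured at only 1 of the time points. With symbols, 293 probes were called higher at 24 h and were well above background on all 4 E24 arrays and on none of the E4 arrays, and 129 showed the opposite. Nipal1 was at least 15.1-fold higher at 4 h (adjusted p = 1.03e-12), Bcl2l15 at least 13.5-fold (adjusted p = 2.21e-12) and Sema7a, a membrane semaphorin, at least 12.1-fold (adjusted p = 2.81e-10). In the other direction C1qtnf7 was at least 5.99-fold higher at 24 h (adjusted p = 8.47e-12) and Fxyd6, a regulator of the sodium pump, at least 4.29-fold (adjusted p = 4.41e-10). For these bounds the dim group was set, array by array, at the lowest signal that the software still called well above background, or at its own signal if that was higher. The probes of C1qtnf7 and Fxyd6 lay in rows 362 and 302 of the 384 rows of spots. In rows 289 to 336 the median of dim probes, relative to their own mean, went from -0.10 to 0.24 after nsPEF. In sham it went from -0.16 to 0.12, and it also rose in both in rows 337 to 384. The part of this shift in the bounds was not tested. In sham cells Nipal1, Bcl2l15 and Sema7a were likewise well above background on 4 arrays at 4 h and on 0 at 24 h. C1qtnf7 was well above background on 4 sham arrays at each time point, and Fxyd6 on 3 at 4 h and on 4 at 24 h. At 4 h the mean of C1qtnf7 was lower in sham (-4.78) than in nsPEF (-4.57), and that of Fxyd6 was -4.90 in sham and -5.15 in nsPEF. Negative controls read higher on the nsPEF arrays. These counts of arrays are therefore not read as differences in level between nsPEF and sham cells.

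Gene groups that drive cell division rose together in nsPEF cells. Of 54 tested DNA replication genes, 49 rose and 1, Orc2, fell, with a median difference of 0.66 on the log2 scale, whereas over all 14040 tested genes 5033 rose and 4964 fell with a median of -0.002. Tk1, thymidine kinase of S phase, rose from between 2.50 and 2.59 to between 4.13 and 4.30, a 3.14-fold change (adjusted p = 5.45e-17). Pola2 and Pole, DNA polymerase subunits, rose by 1.40 and 1.23. Of 60 mitosis and spindle genes 54 rose and 2 fell, with a median of 0.62, led by Cenpf, a kinetochore protein (1.26), Bub1b, a checkpoint kinase (1.22), and Spc25 (1.16). Sham cells had medians of 0.58 and 0.51 for these lists. The difference of changes was positive for 44 of the 54 replication genes, against 7472 of all 14040 tested genes, but 1 of the 54 was called.

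That gene was Ccne1, cyclin E1, which drives entry into S phase. It stood at 3.04, 2.98, 2.87 and 2.91 in E4 and at 3.16, 3.19, 3.08 and 3.26 in E24, whereas it moved from between 3.01 and 3.29 to between 2.95 and 3.05 in sham. The 2 changes, 0.22 and -0.16, differed by 0.38 (SE 0.09, adjusted p = 0.0489), close to the threshold. It was called in 9 of 17 alternatives, in 3 of the 16 fits that left out a single array and in none of the fits that left out a replicate number, and with spike-in scaling it was 0.14 (adjusted p = 0.473).

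Growth factor and immediate-early transcripts fell together, whereas 35.36% of all tested genes were called lower and 35.85% higher. Of 10 tested EGF receptor ligand and feedback genes 9 fell and 1, Erbb2, rose, with a median of -2.69. With the 2 genes that were not above background at 24 h set at their bounds the median was -1.32. With normexp background correction it was -0.83, close to that of the cholesterol list below under the same setting (-0.89). Hbegf, a membrane-anchored ligand, fell from between 2.97 and 3.08 to between -0.12 and -0.04, and the groups did not overlap. The ligands Areg and Btc were not well above background on any E24 array, where their measured means were -6.26 and -6.76, so that only bounds can be given. By these Areg was at least 3.32-fold higher at 4 h (adjusted p = 1.09e-07) and Btc at least 1.88-fold (adjusted p = 0.0187), and Btc lost its call with a floor at the background, with the deposited log2 values and with marked spots kept. Of 27 immediate-early genes 20 fell and 4 rose (median -0.87), with Egr3 at -3.08, Fosl1 at -2.24 and Klf4 at -1.71. The 4 that rose were Egr1 (1.20), Jund (0.59), Fos (0.57) and Btg2 (0.35). Among 15 genes of MAP kinase feedback 11 fell and 1 rose, including the phosphatases Dusp5 (-2.56) and Dusp6 (-1.18) and the inhibitor Spry2 (-1.65). Of 38 Srf and Yap target genes of the cytoskeleton 32 fell and 1 rose (median -0.72), led by Fhl2 (-2.53), Ccn2 (-2.24) and Ankrd1 (-2.11). Sham medians for these 4 lists were -2.47, -0.74, -0.55 and -0.78.

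Of 53 nucleolar genes of ribosome biogenesis 51 fell and the other 2 were not called, with a median of -0.83 against -0.97 in sham, and Rrp12, which exports ribosomal subunits, fell from between 4.43 and 4.53 to between 2.75 and 3.04. Utp18 and Rrp9, of the small subunit processome, were lower at 24 h, Rrp9 by 1.54 on the log2 scale and Utp18, which was not well above background on the E24 arrays, by at least 2.32-fold. The difference of changes was positive for 48 of the 53 genes with a median of 0.14, against 7472 of all 14040 tested genes. Limma's test called 0 of the 53. An unadjusted p under 0.05 was found for 19 of them, all positive, and for 1556 of all tested genes in the positive direction. Among 25 genes of cholesterol synthesis 21 fell and 2 rose, with a median of -0.98 against -0.75 in sham. Hsd17b7, Cyp51, a sterol demethylase, and Idi1, an isomerase of the isoprenoid steps, fell by 2.06, 1.73 and 1.63. The difference of changes was negative for 21 of these 25 genes with a median of -0.17, against 6568 of all 14040 tested genes. Of the 25, 1 was called, Msmo1, a sterol C4 demethylating oxidase. Among 74 cytosolic ribosomal protein genes 24 fell and 50 were not called (median -0.19, and -0.07 in sham), led by Rps6 at -0.40. These 24 are 32.4% of the list, near the 35.4% of all tested genes that were called lower. With spike-in scaling the median of that list turned to 0.20, below the median of 0.39 for all genes. Its median difference of changes, -0.12, became 0.03 without sham replicate 4 of 4 h, the array whose 75th percentile, 787.2, was the highest of the 16.

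**Figure D2:**
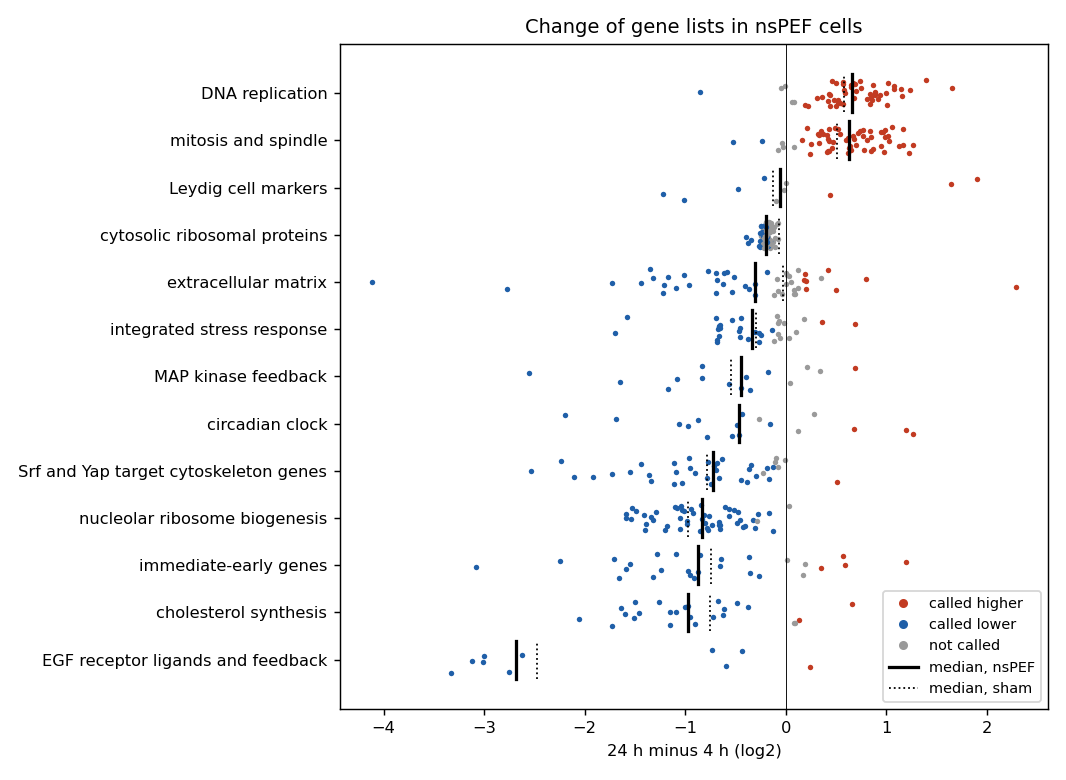
Change from 4 h to 24 h in nsPEF cells (log2, horizontal axis) for each tested gene of 13 lists, with genes called higher in red, called lower in blue and not called in grey. Solid bars mark the list median in nsPEF cells and dotted bars that in sham cells. Measured values are plotted, also for genes near background. Replication and mitosis genes sit mostly to the right of 0, and EGF receptor ligand and feedback genes mostly to the left.

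Of 49 extracellular matrix genes 26 fell and 8 rose, with a median of -0.31 against -0.02 in sham. For this list and the next 2, the shares over all tested genes were 35.36% called lower and 35.85% called higher. The difference of changes was negative for 35 of the 49, against 6568 of all 14040 tested genes. Tnc, an adhesion-modulating matrix protein, fell from between -0.01 and 0.43 to between -4.56 and -3.42, with 3 of the 4 E24 arrays well above background. Eln, elastin, was not well above background on any E4 array and was at least 1.61-fold higher at 24 h (adjusted p = 1.83e-07). With spike-in scaling the list median became 0.08, again below that of all genes. Of 34 genes of the integrated stress response 22 fell and 2 rose (median -0.34, and -0.29 in sham), with the cystine transporter gene Slc7a11 at -1.70. Among 17 clock genes 11 fell and 3 rose (median -0.46, and -0.47 in sham), with Per2 at -1.69, Ciart at -2.19 and Per3 at 1.26. Each of these lists was chosen with earlier results of these data known, so the counts describe the lists and are not independent evidence of a direction.

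To ask what was particular to nsPEF cells, the change from 4 h to 24 h in sham was subtracted from that in nsPEF. By this difference of changes 87 probes (0.295%) were called higher in nsPEF and 62 (0.21%) lower, 149 in all, while 4688 had an unadjusted p under 0.05. With the replicate number as a block 226 were called. The split moved with the scaling, from 58.4% higher to 70.8% with quantile normalization, 47.5% with a percentile over detected probes, 27.6% with normexp background correction, 77.9% with values centred by array row and 1.73% with spike-in scaling, which moved the median difference of all tested probes to -0.24. The number called fell to 15 when the 0 h arrays were left out of the estimate of the spread. It lay between 27 and 1211 when single arrays were left out, and leaving out all arrays of 1 replicate number left at most 22 calls. Of the 149 probes, 22 were called without each of the 16 arrays in turn, among them those for Dusp1, Ypel3, Bicc1, Hacd4 and Ccn1, which were lower, and Rab3a, Cpt1a, Rpusd3, Cideb, Krt80, Kcnn1 and Gulo, which were higher. Hacd4, Rab3a, Cpt1a, Rpusd3 and Gulo are named because they were in this count, after their values were seen.

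**Figure D3:**
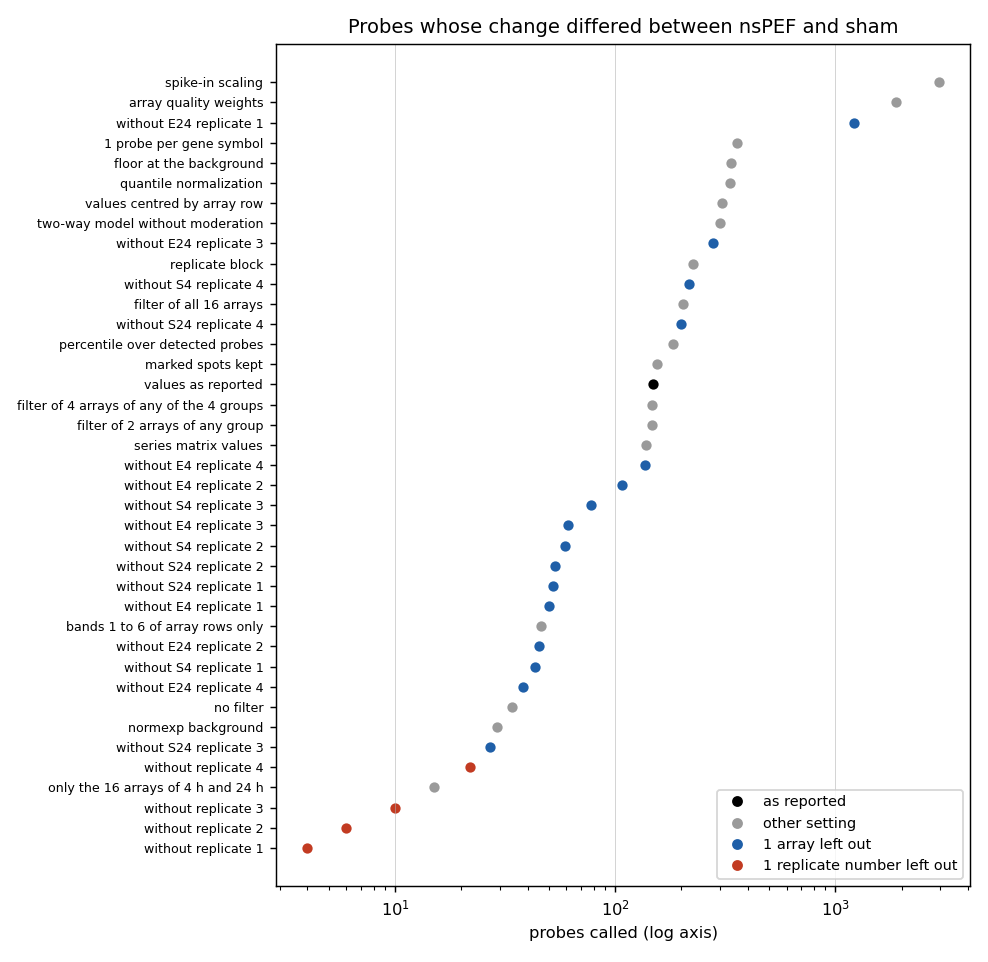
Number of probes called in the difference between the nsPEF and sham changes (log axis) as reported, under other settings, without single arrays and without a replicate number in all groups. The reported count is 149, and the counts run from 4 without replicate 1 to 2952 with spike-in scaling.

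Among the probes called lower, 36 also fell in nsPEF cells from 4 h to 24 h, 10 rose and 16 were not called there. Their nsPEF level was above sham at 4 h and below it at 24 h, with median differences of 0.18 and -0.32, and this change of sign was seen for 55 of the 62. A change of sign goes with the way these probes were chosen and is a description. Dusp1, Ccn1, Ypel3 and Bicc1 were called without each array in turn and are described one by one. Promoters of the 3 of them that the RefSeq table of GRCm38.p6 holds are shown, each 300 bases long around the gene's start. Capitals mark the letters of some of the motifs searched on both strands: the cyclic AMP response element TGACGTCA, its core TGACG, the TEAD site GGAATG through which Yap acts, and CCAAT. Letters of AP-1, GC box, TATA and CArG sites were searched as well and are not marked. Of these the Dusp1 window held 3 GC boxes, and the Ccn1 window held 2 GC boxes and 1 TATA.
Dusp1 promoter, chr17:26508423-26508722, minus strand: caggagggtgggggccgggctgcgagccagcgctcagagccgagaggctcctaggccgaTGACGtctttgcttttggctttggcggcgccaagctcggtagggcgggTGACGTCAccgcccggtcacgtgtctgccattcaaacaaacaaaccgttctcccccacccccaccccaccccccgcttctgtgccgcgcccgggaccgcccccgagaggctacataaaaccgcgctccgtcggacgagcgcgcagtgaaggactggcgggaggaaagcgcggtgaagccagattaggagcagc
Ccn1 promoter, chr3:145649936-145650235, minus strand: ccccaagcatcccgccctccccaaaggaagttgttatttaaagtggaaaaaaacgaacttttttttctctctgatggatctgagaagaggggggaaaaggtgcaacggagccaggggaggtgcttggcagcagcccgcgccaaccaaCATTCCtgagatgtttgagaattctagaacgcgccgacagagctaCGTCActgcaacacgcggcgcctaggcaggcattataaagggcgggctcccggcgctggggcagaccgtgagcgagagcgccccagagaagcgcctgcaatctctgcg
Ypel3 promoter, chr7:126776713-126777012, plus strand: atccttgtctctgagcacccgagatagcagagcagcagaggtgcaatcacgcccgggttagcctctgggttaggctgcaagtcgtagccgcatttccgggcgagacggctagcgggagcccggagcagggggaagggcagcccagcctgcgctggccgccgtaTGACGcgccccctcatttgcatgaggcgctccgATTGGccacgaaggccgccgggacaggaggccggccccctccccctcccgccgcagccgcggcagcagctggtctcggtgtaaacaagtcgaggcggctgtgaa
The Dusp1 window held TGACGTCA from position -143 relative to the start, which contains the core on both strands, and a further TGACG from position -191. The Ccn1 window held CATTCC, the reverse of the TEAD letters, from position -103 and CGTCA, the reverse of the core, from -58. In the Ypel3 window TGACG began at -87 and ATTGG, the reverse of CCAAT, at -54. Among all 32851 promoters listed there, 1.79% held TGACGTCA, 20.8% the core, 14.7% the TEAD letters and 37.4% CCAAT. Counted by gene, over any of its promoters, the shares were 3.42%, 33.0%, 14.6% and 42.9% of the 11135 tested genes with a promoter. Of the 38 such genes among those called lower, 1 (2.63%) held TGACGTCA, 12 (31.6%) the core, 8 (21.1%) the TEAD letters and 22 (57.9%) CCAAT. No test was made of these shares. A match is a description of the letters and not of binding.

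Dusp1, on chromosome 17, encodes a dual-specificity phosphatase that switches off stress-activated MAP kinases. It stood at 0.73, 0.76, 0.64 and 0.70 in E4 and at 0.45, 0.38, 0.29 and 0.27 in E24, whereas sham cells went from 0.34, 0.36, 0.49 and 0.63 to 0.75, 0.81, 0.88 and 0.73. In nsPEF cells it thus fell, in sham cells it rose, and the nsPEF and sham arrays did not overlap at either time point. The changes of -0.36 and 0.34 differed by -0.70 (SE 0.10, adjusted p = 0.00754). At 0 h its mean was 4.36 in nsPEF cells, so that both time points lay far below the start.

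Ccn1, on chromosome 3, a matricellular protein and a Yap target, fell in both groups but further after nsPEF. Its values were 4.88, 4.85, 4.93 and 4.92 in E4 and 3.30, 3.31, 3.45 and 3.30 in E24, against 4.67 to 4.80 in S4 and 3.60 to 3.70 in S24. The changes of -1.55 and -1.07 differed by -0.49 (SE 0.06, adjusted p = 0.00221). Its relative Ccn2, from the same family, fell by 2.24 and 1.85, a difference of -0.39 (adjusted p = 0.0361). Ccn1, Dusp1 and Bicc1 were called under every alternative that held their probe, whereas without a replicate number in all groups Ccn1 was called in 2 of 4 cases and Dusp1 and Bicc1 in 1 each.

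Ypel3, on chromosome 7, and Bicc1, on chromosome 10, rose in both groups but by less after nsPEF. Ypel3, a small protein linked to growth arrest, went from -2.75, -2.40, -2.65 and -2.74 to -0.44, -0.68, -0.44 and -0.86, against a sham rise from between -3.02 and -2.92 to between -0.29 and -0.15. Bicc1, an RNA-binding protein, rose from between 1.10 and 1.18 to between 1.23 and 1.64, and sham cells rose from between 0.79 and 0.93 to between 1.78 and 1.87. The differences of changes were -0.70 (SE 0.12, adjusted p = 0.0198) and -0.65 (SE 0.10, adjusted p = 0.00884).

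Of the 27 immediate-early genes 4 were called lower, against 43 of all 14040 tested genes. They were Dusp1, Fosl2 (-0.38), Ier3 (-0.39) and Myc (-0.38). Fosl2 stood between 3.28 and 3.40 in E4 and between 1.97 and 2.06 in E24, and sham cells went from between 3.00 and 3.21 to between 2.11 and 2.17. For the list as a whole the difference was negative for 21 of 27 genes with a median of -0.15, while over all tested genes it was negative for 6568 of 14040 with a median of 0.015. Members of other lists that were called lower included Ccn1, Ccn2, Mmp13, Trib1, a pseudokinase that tunes MAP kinase signalling (-0.31), Ndrg1, a stress and hypoxia response gene (-0.54), Msmo1 (-0.37) and Chac1. Chac1, an enzyme that degrades glutathione and belongs to the integrated stress response, differed from these in its course. Its nsPEF level exceeded sham by 0.43 at 4 h and by 0.02 at 24 h, so the difference of changes of -0.41 (adjusted p = 0.0388) was mostly a gap that had closed.

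Over all genes, the largest negative differences among probes well above background on all 16 arrays included those of Edn1, Mmp13, Nrg1, Bach2 and Zc3h6. Edn1, endothelin 1, rose from between -0.49 and -0.15 to between 0.60 and 1.10 after nsPEF and to between 1.26 and 1.50 in sham, a difference of -0.62 (adjusted p = 0.0489) that was called in 11 of 18 alternatives and in 4 of the 16 fits without a single array. Mmp13, a collagenase, fell from between 2.22 and 2.29 to between 0.99 and 1.60 and fell by 0.26 in sham, a difference of -0.70. The values of Nrg1, a ligand of ErbB receptors, Bach2, a transcription repressor, and Zc3h6 were -0.77, -0.72 and -0.89. Gpm6a (-0.69), Vwa5a (-0.67), Zswim9 (-0.75) and Clca3a1 (-0.60) rose in sham cells and were not called in nsPEF cells.

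**Figure D4:**
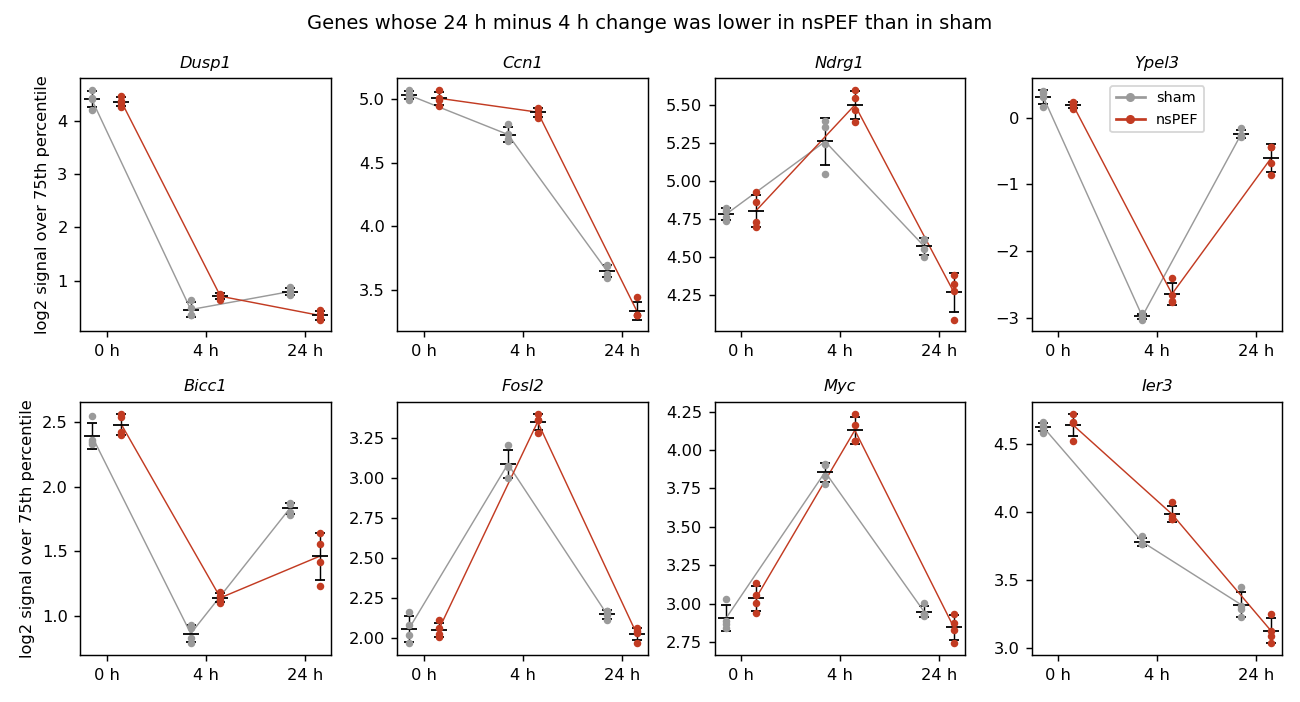
Log2 signal relative to the 75th percentile (vertical axis) at 0 h, 4 h and 24 h for 8 genes whose change was called lower in nsPEF, with a point per array, the mean and its SD (n = 4), sham in grey and nsPEF in red. In each panel the nsPEF mean lies above the sham mean at 4 h and below it at 24 h.

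The probes called higher had another pattern. Of these 87, 27 rose in nsPEF cells, 26 fell and 34 were not called there, with a median change of 0.03, against -0.78 in sham. The level in nsPEF cells was below or near sham at 4 h and above it at 24 h (median differences of -0.19 and 0.27). A change of sign was seen for 70 of the 87, and here too it goes with the way the probes were chosen. Kcnn1, a calcium-activated potassium channel, stood at -3.38, -3.46, -2.75 and -2.84 in E4 and at -2.98, -2.72, -3.06 and -2.56 in E24, so the groups overlapped, whereas sham cells went from between -3.38 and -3.08 to between -4.76 and -3.99. Its changes differed by 1.50 (SE 0.24, adjusted p = 0.0094). Krt80, a keratin, moved by -0.22 after nsPEF and by -1.37 in sham, a difference of 1.16. Acp5, an acid phosphatase of osteoclasts, fell by 1.05 and by 2.51, a difference of 1.46. The other large values were those of Adgrf3 (1.66), Olfr1344 (1.43), Lhfpl5 (1.27), Cd164l2 (1.24), Rxfp4 (1.02), Cideb (0.97), Mfsd4a (0.97), Stab2 (0.90) and Tuba3b (0.87). Adgrf3 and Acp5 were low in sham at 24 h, between -5.14 and -3.85 and between -5.18 and -4.56. Both lost their call with normexp background correction, with no filter and with only the 16 arrays of 4 h and 24 h. How far nearness to background set these sizes was not tested.

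Many of the probes called higher lay in the same stretch of the array, though every band of 48 rows held some. Of the 17 genes called higher that were named for this difference, 15 had their probe in rows 300 to 370 of the 384 rows of spots. Of all 87 probes 39 lay there and 48 elsewhere, whereas these rows held 5343 of the 29481 tested probes. Tmem254a, in row 67, was among the exceptions, with a rise of 1.89 after nsPEF and of 1.18 in sham. Of the 62 probes called lower 14 lay in rows 300 to 370. Dim probes shifted with the row. In rows 337 to 384 their median, relative to their own mean over the 16 arrays, went from -0.17 to 0.26 after nsPEF and from -0.19 to 0.18 in sham, and in rows 1 to 48 it went from 0.21 to 0.01 and from -0.14 to -0.22. With values centred by array row 41 of the 42 genes named for the difference were called. With normexp background correction 10 of these genes were called, and with only the 16 arrays of 4 h and 24 h 4 were. When only rows 1 to 288 were used, which was chosen after the data were seen, 20 probes were called higher and 26 lower. The part of the array row in the result was not tested.

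**Figure D5:**
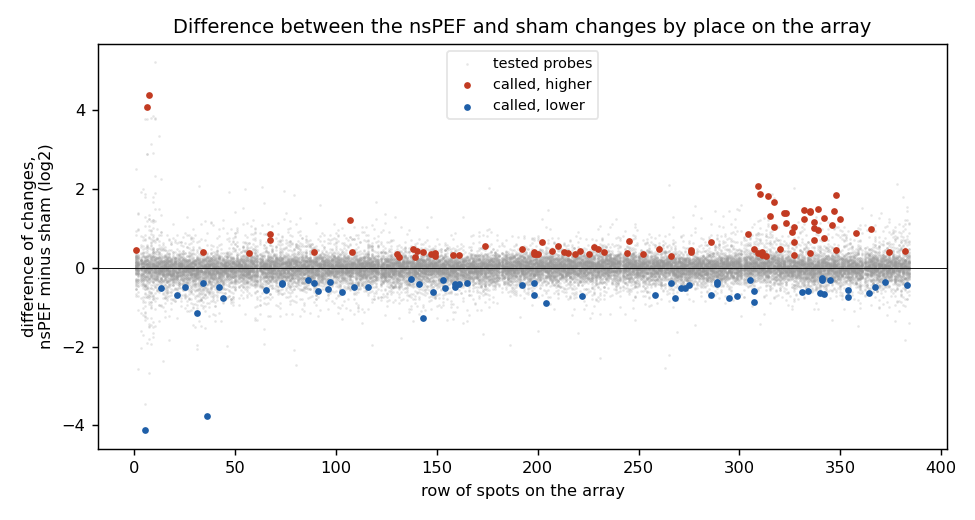
Difference between the nsPEF and sham changes (log2, vertical axis) of each tested probe against its row of spots on the array (horizontal axis), with probes called higher and lower in colour. Of the higher calls with a value of at least 0.9, 14 sit in rows 289 to 336 and 10 in rows 337 to 384, against at most 2 in any other band of 48 rows.

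The nsPEF and sham cells were also compared at each time point. At 4 h 422 probes (1.43%) were called higher in nsPEF than in sham and 689 (2.34%) lower, and at 24 h 757 (2.57%) and 1150 (3.9%). For the 422, the median gap was 0.75 at 4 h and 0.26 at 24 h, 84.6% kept its sign and 53 were called in the same direction at 24 h, while over all probes 50.6% had a positive gap at 24 h. Over all tested probes the gap was larger in size at 24 h for 15133 and at 4 h for 14348. For the 689, the median went from -0.26 to -0.08, 76.3% kept the sign and 76 were called. Probes were picked by their gap at 4 h, which makes that gap the larger by choice. The arrays of 24 h entered the pick only through the filter and the estimate of the spread, which all arrays share. Picked at 24 h instead, the 757 probes had a median gap of 0.60 there and of 0.08 at 4 h, and the 1150 had -0.29 and -0.07. Among probes well above background on all 16 arrays in rows 49 to 288, those called higher at 4 h had a median gap of 0.66 at 4 h and of 0.23 at 24 h. Of the 422 and 689 probes called at 4 h, 17 and 34 were also called in the difference of changes. Only 32 probes were called between nsPEF and sham at 0 h. Negative controls and marked spots also differed between nsPEF and sham arrays at 4 h and at 24 h, as given above, and their part in these gaps was not tested.

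Of the 6 genes that the study names for its arrays, Fos was well above background on all 16 arrays. Fos, the immediate-early transcription factor, stood at -1.05, -0.85, -1.13 and -1.02 in E4 and at -0.11, -0.65, -0.37 and -0.65 in E24, a rise of 0.57 (SE 0.10, adjusted p = 5.80e-05). Sham cells rose by 1.14, and the difference of changes was -0.57 (adjusted p = 0.0753, with 3 of the 4 S24 arrays), which missed the threshold. Zfp750 had a fall of 2.50 (SE 0.73, adjusted p = 0.00625) that rested on 2 E4 arrays, at -2.82 and -1.51, since its spot was marked on the other 2. The E24 values were -3.35, -4.55, -7.15 and -3.60. Its probe lay in row 2, and the call was lost without E4 replicate 2 and when only the 8 nsPEF arrays were fitted. Cacng5, Cntn4 and Piezo2 did not pass the filter and were not tested.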

How the data were processed

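RNA of 24 samples of the mouse line TM3, in 6 groups of 4, was labelled with Cy3 and hybridized to Agilent 8-array slides, and the images were read by the authors with Feature Extraction 12.0, as the submitters' notes state. In the deposited scanner text the processed signal intensity of each spot is in arbitrary units, background-subtracted and detrended by that software and not scaled between arrays. The deposited series table holds log2 values that the authors shifted to the 75th percentile and centred on a median baseline per probe in GeneSpring, and it served as an alternative.

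Spots with a mark for unevenness or for disagreement with replicate spots were not used, the 59305 spots that were not controls were averaged to 56605 probes, and the log2 value minus the array's 75th percentile over them was used. Saturated spots numbered 0. Accessions came from the scanner text, and gene symbols came from RefSeq by a match on the accession. Files were read in R 4.3.3. With limma 3.58.1, 6 group means were fitted to all 24 arrays, and the contrasts and their difference were tested with adjustment over 29481 probes. Of these, 1193 lacked a value on some array. A gene of a list is represented by its tested probe with the highest mean over the 16 arrays. Permutation tests were exact and two-sided, and 4 arrays against 4 cannot go below p = 0.0286. Promoter sequences came from RefSeq.

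Genes are named by a rule. It takes the 12 largest rises and 12 largest falls among called probes with a symbol that were well above background on all 8 nsPEF arrays, the 15 largest positive and 15 largest negative differences of changes among called probes well above background on all 16 arrays, the 5 largest bounds in each direction, up to 3 members of each list with the largest change and every list member called in the difference, the cell type markers and the genes that the study names for its arrays. Results for some genes that meet the rule are not reported here. The members, lists and rule were chosen with earlier results of these data known. The alternatives were quantile normalization, spike-in scaling on 210 spots of 6 probes, a percentile over detected probes, normexp with an offset of 50, the deposited log2 values, a floor at the background, other filters, marked spots kept, centring by array row, array quality weights, fewer arrays in the fit, a two-way model without moderation as the study used, 1 probe per gene, a replicate block and the omission of arrays. The fit was also tested on simulated data. Precision is limited by 4 arrays per group and by how far a probe's signal lies above background.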

Additional observations from a re-analysis of the deposited data

Results flagged for a closer look

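In 14 of 302 groups of 4 arrays that were examined for the named genes (4.64%), 1 array lay apart from the other 3 by more than Dixon's critical value, and chance gives about 1 in 20 groups. In E4 these were Dusp5 in replicate 2 (-1.38, others -1.55 to -1.52), Eln in replicate 1 (-5.26, others -6.64 to -6.46), Hbegf in replicate 3 (2.97, others 3.08), Pmepa1 in replicate 1 (3.84, others 3.97 to 3.99), Spry2 in replicate 2 (2.38, others 2.25 to 2.27) and Zc3h6 in replicate 4 (-2.29, others -2.37 to -2.36). In E24 they were Ccn1 in replicate 3 (3.45, others 3.30 to 3.31), Ngef in replicate 3 (-4.43, others -4.01 to -3.95), Noct in replicate 1 (1.94, others 1.74 to 1.77) and Nrg1 in replicate 1 (-1.69, others -2.00 to -1.95). In sham cells they were Ier3 in S4 replicate 2 (3.82), Tmem254a in S4 replicate 2 (-3.33), Lhfpl5 in S24 replicate 3 (-3.73) and Myc in S24 replicate 4 (3.00).

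For the named genes listed next, the change from 4 h to 24 h differed between nsPEF and sham cells by limma's test of the difference itself. The change was higher in nsPEF cells for Adgrf3 (1.66), Kcnn1 (1.50), Acp5 (1.46), Olfr1344 (1.44), Lhfpl5 (1.27), Cd164l2 (1.24), Krt80 (1.16), Gm28178 (1.08), Rxfp4 (1.02), Cideb (0.97), Mfsd4a (0.97), Stab2 (0.90), Tuba3b (0.87), Tmem254a (0.71), Tex19.2 (0.65), Nfkbie (0.48) and Ccne1 (0.38), all as log2 differences. It was lower for Zc3h6 (-0.89), Nrg1 (-0.77), Zswim9 (-0.75), Bach2 (-0.72), Gm8579 (-0.71), Mmp13 (-0.70), Dusp1 (-0.70), Ypel3 (-0.70), Gpm6a (-0.69), Vwa5a (-0.67), Bicc1 (-0.65), Gm9758 (-0.63), Gm21083 (-0.62), Edn1 (-0.62), Clca3a1 (-0.60), Ndrg1 (-0.54), Ccn1 (-0.49), Chac1 (-0.41), Ier3 (-0.39), Ccn2 (-0.39), Fosl2 (-0.38), Myc (-0.38), Msmo1 (-0.37) and Trib1 (-0.31).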

How the results depend on the processing

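The count of probes that differed between 24 h and 4 h in nsPEF cells, 19303, lay between 17095 and 21383 in the other settings over all array rows, except for 10132 with 1 probe per gene symbol, which tests fewer probes. It lay between 18565 and 19685 without single arrays and between 17139 and 18689 without a replicate number. The count for the difference between the nsPEF and sham changes, 149, was less stable. It was 332 with quantile normalization, 2952 with spike-in scaling, 29 with normexp, 335 with a floor at the background, 307 with values centred by array row, 34 with no filter, 15 with only the 16 arrays of 4 h and 24 h, 1884 with array quality weights, 300 without moderation, 359 with 1 probe per gene symbol and, chosen after the data were seen, 46 in rows 1 to 288 only. It ranged from 27 without S24 replicate 3 to 1211 without E24 replicate 1, with 50 and 61 without E4 replicates 1 and 3, 45, 279 and 38 without E24 replicates 2, 3 and 4, 43, 59 and 78 without S4 replicates 1, 2 and 3, and 52 and 53 without S24 replicates 1 and 2. Without a replicate number in all groups it was 4 to 22. Spike-in scaling and normexp called 92 and 22 of the 149 probes. Apart from the scaling and from the smaller numbers of arrays or probes, the cause of these shifts was not tested.

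Under spike-in scaling the change of 8 genes turned its sign, for Rpl37 to 0.013 (adjusted p = 0.943), Rps15a to 0.039 (adjusted p = 0.793), Cd68 to 0.093 (adjusted p = 0.381), Mt2 to 0.24 (adjusted p = 0.0139), Atp5e to 0.17 (adjusted p = 0.0436), Psmd12 to 0.028 (adjusted p = 0.772), Psmd14 to 0.091 (adjusted p = 0.496) and Psmd11 to 0.11 (adjusted p = 0.160), all from limma, while the median of all tested genes moved to 0.39. The median difference of changes of all tested genes moved to -0.23, and those of the nucleolar, replication and mitosis lists to -0.10, -0.16 and -0.16, above it as before. Of the settings of single genes, 5928 kept the call of the change in nsPEF cells and 56 lost it, and for the difference of changes 1030 kept it and 606 lost it. Of the 42 genes named for a called difference, 8 were called without each array in turn and 0 without each replicate number in turn. With normexp background correction 10 of the 42 were called, and with only the 16 arrays of 4 h and 24 h 4 were.

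Deviations of samples with the same replicate number had correlations of -0.11 to 0.22, and their mean exceeded that of samples with other numbers in all 6 pairs of groups (0.107 against -0.035 for E4 and S4). The study tested each biological replicate on a single cell suspension, but neither its text nor the labels tie the array numbers to these suspensions, and not every pair passed 0.1, so the numbers were not taken to pair the samples. With the replicate number as a block, 19460 probes were called for the change and 226 for the difference of changes, and 41 of those 42 genes were called.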

Other observations

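Over all tested genes 35.85% were called higher at 24 h than at 4 h in nsPEF cells and 35.36% lower. Of 31 tested genes of annexins and membrane repair 17 fell and 6 rose between 4 h and 24 h in nsPEF cells (median -0.27, and -0.21 in sham), with Anxa8 at -1.34 and Ano6, a lipid scramblase, at -1.16. Dysf, dysferlin, which patches torn membranes, was called lower and was well above background on 1 of the 4 E24 arrays. Of 26 genes of calcium handling 14 fell and 6 rose (median -0.14, and -0.13 in sham), with Rcan2, a calcineurin regulator, at -1.75. Atp2a3, a calcium pump, was not well above background in E4 and was at least 2.24-fold higher at 24 h (adjusted p = 3.33e-05). The transcription factor gene Nfatc2 stood between -2.37 and -2.15 in E4 and at -6.68, -6.84, -3.64 and -6.18 in E24, where 1 array was well above background. Its measured fall of 3.60 became 1.19 in the setting that moved it most, and it was called in each. Of 26 genes of integrins and focal adhesions 20 fell and 2 rose (median -0.56, and -0.47 in sham), with Tns3 at -1.98, Itga6 at -1.72 and Itga5 at -1.41.

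DNA repair genes rose as replication genes did, 51 of 72 against 12 that fell (median 0.57, and 0.51 in sham), with Fancg at 1.96, Neil3 at 1.85 and Rad54l at 1.78. Beside this list and the next 2, 35.85% of all tested genes were called higher and 35.36% lower. Of 28 p53 targets 15 rose and 8 fell (median 0.22), with Trp53inp1 at 2.03, Sesn1 at 1.69 and Ddb2 at 1.64. In sham cells 16 of these targets rose and 8 fell (median 0.27). Of 31 NF-kB targets and chemokines 17 fell and 7 rose (median -0.20, and -0.06 in sham), with Il1rl1 at -4.60, Csf3 at -3.45 (3 of 4 E24 arrays well above background) and Cxcl10 at 2.30. In the difference of changes Nfkbie, an inhibitor of NF-kB, was called at 0.48. It stood between 0.06 and 0.18 in E4 and between 0.37 and 0.87 in E24, and between 0.35 and 0.54 in both sham groups.

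The largest differences of changes over all probes with a symbol lay outside the rule for named genes, because their probes were not well above background on all 16 arrays, and are given after their values were seen. They were those of Gm36908, Lrrn2 and Gm28729, with probes in rows 7, 5 and 6, the first rows of spots. Lrrn2 had measured group means of -3.11 in E4, -6.97 in E24, -7.72 in S4 and -7.45 in S24. Since values near background set the size of such differences, no size is given.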
